A study of Drosophila melanogaster with 5 samples.

Results

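The rhodopsins and the shared phototransduction genes were examined in open chromatin of 2 kinds of fly neurons. The members were 5 rhodopsin genes (ninaE, Rh3, Rh4, Rh5 and Rh6) and 5 genes of the transduction machinery that photoreceptors share (norpA, ninaC, trp, trpl and inaD). Every region of the deposited comparison table whose nearest gene was 1 of these 10 was taken, which gave 68 of 80590 regions and 10 of 14273 genes, 23 regions for the rhodopsins and 45 for the transduction genes. Regions were assigned by gene name and no measured value, and the genes were chosen with earlier results of these data known.

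Rhodopsins are the light receptors of the compound eye, each made of an opsin protein and a retinal-derived chromophore. Outer photoreceptors use the ninaE product, and inner photoreceptors use Rh3, Rh4, Rh5 or Rh6, usually a single opsin per cell. In all of them an activated rhodopsin switches on a G protein, phospholipase C cleaves a membrane lipid, and TRP channels open in the rhabdomere, the light-sensing membrane stack. Neither dopamine nor GABA neurons of the brain are known for this pathway, whose main role is in the photoreceptors of the eye.

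ATAC-seq, in which the Tn5 transposase inserts sequencing adapters into accessible DNA, was performed on nuclei from heads of adult Drosophila melanogaster. Nuclear GFP was driven in dopaminergic cells by TH-Gal4, which uses the tyrosine hydroxylase promoter (libraries dopamine 1 and 2), and in GABAergic cells by vGAT-Gal4, which uses that of the vesicular GABA transporter (libraries GABA 1, 2 and 3). All flies grew on cornmeal agar at 25 °C, carried a Gal4 driver and a GFP reporter, and were frozen before pooled heads were homogenized with their eyes and GFP-positive nuclei were sorted. The labels give neither sex nor age, nor whether libraries of a type came from separate flies, so the spread between them may be technical. Fewer nuclei with an open region and a less open region in each nucleus cannot be told apart.

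MACS2 called 69464 and 69940 peaks in the dopamine libraries and 84055, 81638 and 107219 in the GABA libraries. The study lists reads per library in its supplement, which were not used here, and their part in the numbers of peaks was not tested. Fold enrichment, the height of a peak over the local background, had a median of 2.63 and 3.19 in the dopamine lists and of 2.19 to 2.48 in the GABA lists. Peaks were therefore compared by percentile, the share of peaks in the same list that were no higher, and a gene without a peak was given 0. By this measure ple, the tyrosine hydroxylase gene, lay at 99.95 and 99.97 in the dopamine lists, against 75.9 to 85.2 in the GABA lists. The GABA synthesis gene Gad1 and the transporter gene VGAT lay at 97.8 to 99.8 in the GABA lists and at 55.1 to 77.3 in the dopamine lists. The dopamine transporter gene DAT overlapped between the types, and Vmat, the vesicular monoamine transporter gene, lay higher in the GABA lists (53.9 to 63.6) than in the dopamine lists (26.9 and 0). For DAT this is the highest peak over all its regions. The study instead compared read counts at single peaks and reported peaks in DAT as significantly more open in dopamine neurons. Since 2 libraries can be drawn from 5 in 10 ways, a two-sided exact permutation test gives no p below 0.2, and no comparison could pass 0.05.

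As a group, the 10 genes had fewer of their regions under a peak in dopamine neurons than in GABA neurons. Of the 23 rhodopsin regions, 8 and 5 had a peak in the dopamine lists, compared with 14, 13 and 15 in the GABA lists. Of the 45 transduction regions, 9 and 10 had a peak in the dopamine lists, against 30, 29 and 35 in the GABA lists. Both groups of regions thus had a smaller share with a peak in every dopamine library than in any GABA library. Over the whole table the share was 40.5% and 40.4% in the dopamine lists but 49.5%, 49.2% and 60.2% in the GABA lists, so both groups lay below the table in each dopamine library and above it in each GABA library. The rhodopsin mean was 28.3% ± 9.22 (SD, n = 2) in dopamine neurons, against 60.9% ± 4.35 (SD, n = 3) in GABA neurons (two-sided exact permutation test, p = 0.2). For the transduction genes it was 21.1% ± 1.57 (SD, n = 2) and 69.6% ± 7.14 (SD, n = 3), with the same p of 0.2 by the exact permutation test. When each list was cut to 69464 peaks, the difference of dopamine minus GABA neurons remained -21.0 percentage points for the rhodopsins and -41.9 for the transduction genes. The rhodopsin difference of -32.6 points shrank to -14.5 with peaks of -log10 q of at least 5, to -17.4 when a peak had to cover 50% of the region, and to -17.8 when regions were taken by the gene's span and 2 kb.

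**Figure D1:**
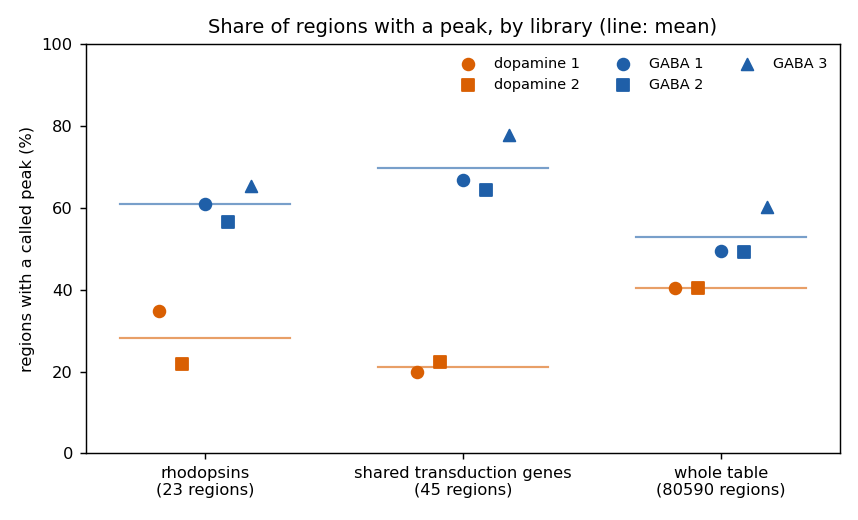
Percentage of regions with a called peak (vertical axis) for the 23 rhodopsin regions, the 45 regions of shared transduction genes and all 80590 regions of the table (horizontal axis). Points are libraries and lines are means per neuron type. Dopamine libraries reached 20% to 34.8% for the members and GABA libraries 56.5% to 77.8%, a wider gap than over the whole table.

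Compared with each other within a library, the rhodopsins had the larger share of regions with a peak in dopamine 1 (by 14.8 percentage points), an almost equal share in dopamine 2 (-0.48 points), and a smaller share in GABA 1, 2 and 3 (-5.80, -7.92 and -12.6 points). The mean was 7.15 ± 10.8 points (SD, n = 2) in dopamine neurons, against -8.76 ± 3.46 points (SD, n = 3) in GABA neurons, a difference of 15.9 points (exact permutation test, two-sided, p = 0.2). It did not hold up against single genes: without Rh5 the difference was 8.04 points and without norpA 4.69 points, both with overlapping libraries and p = 0.6 by the exact permutation test, and it fell to 8.28 points without dopamine 1. These gene-wise omissions were chosen after the data had been seen. The rhodopsin regions lay within 1000 bp of a start site more often (52.2%) than the transduction regions (35.6%) or all regions (39.8%), and among regions so placed the difference was 8.33 points (exact permutation test, two-sided, p = 0.6). Their authors' mean signal, the normalized read count averaged over all 5 libraries, had a median of 87.9, compared with 74.0 for the transduction genes and 81.0 over the table. This count is not divided by width, and the median widths were 196, 166 and 175 bp in the same order.

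Region by region, 32 of the 68 member regions had a higher percentile in all 3 GABA lists than in both dopamine lists, compared with 26.6% of all regions of the table. The opposite order was found in 7 member regions and 16.4% of all regions. Peaks in all GABA lists and in no dopamine list covered 24 of the 68 regions (13.2% of all regions), 6 of the rhodopsins and 18 of the transduction genes. Only 4 regions were covered in both dopamine lists but in none of the GABA lists (8.42% of all regions), 3 of them rhodopsin regions. A peak in all 5 lists was found at 9 member regions (20.6% of all regions) and in no list at 10 (19.5% of all regions). Some neighbouring regions shared an interval and others held several, so the 68 regions were not independent. In the dopamine lists 12 and 6 distinct intervals overlapped rhodopsin regions and 10 and 10 overlapped transduction regions, and in the GABA lists 16, 16 and 18 and 31, 33 and 37. The median difference in percentile, dopamine minus GABA, was -17.8 over the rhodopsin regions, -34.0 over the transduction regions and -3.33 over all regions.

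When the highest peak of each gene was taken, 7 of the 10 genes stood higher in all GABA lists (39.3% of all genes), and Rh5 alone stood higher in both dopamine lists (23.9% of all genes). The 7 were Rh3, Rh4, Rh6, ninaC, trp, trpl and inaD, and the libraries of the 2 neuron types overlapped at ninaE and norpA. Rh5, trp and trpl kept this separation in all 12 alternative settings for which it was computed. The other 5 calls were lost in at least 1 of them, as given with each gene.

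**Figure D2:**
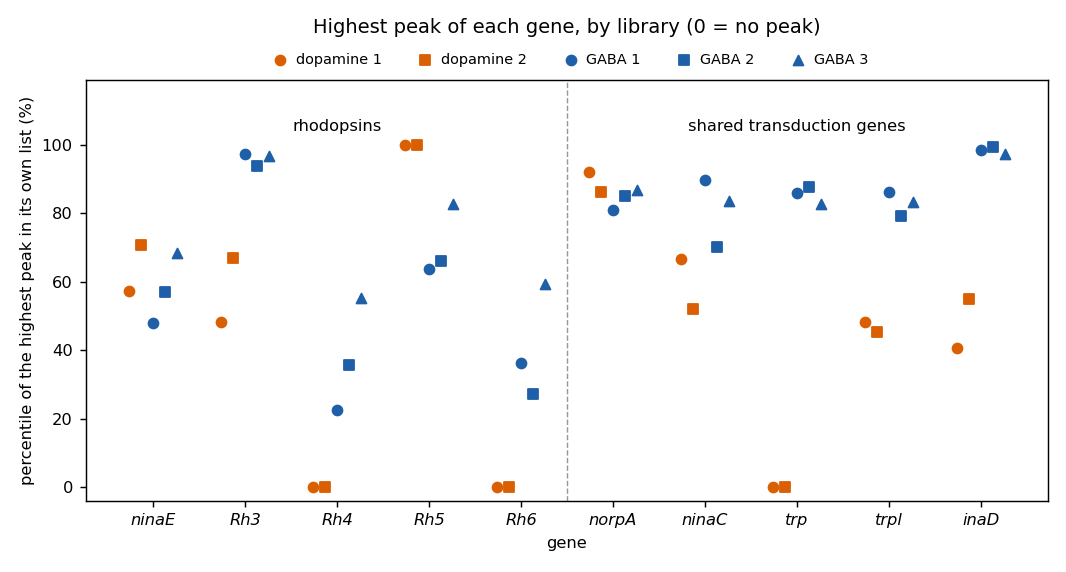
Percentile of the highest peak within its own peak list (vertical axis, 0 where no peak was called) for the 5 rhodopsins and the 5 shared transduction genes (horizontal axis). Each point is a library, orange for dopamine and blue for GABA neurons. Rh4, Rh6 and trp had no dopamine peak, and Rh5 is the gene whose dopamine points, at 99.90 and 99.97, lie above all GABA points.

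ninaE encodes the main opsin of the outer photoreceptors and lies on 3R from 19886255 to 19888206 on the minus strand (FBgn0002940). Its highest peak stood at 57.3 and 70.8 in the dopamine lists, compared with 48.0, 57.0 and 68.3 in the GABA lists, so the types overlapped (64.0 ± 9.53, SD, n = 2, and 57.8 ± 10.2, SD, n = 3, exact permutation test, two-sided, p = 0.4). The order of the means rested on dopamine 2: without it the difference was -0.48 percentile points instead of 6.262. Without dopamine 1 or GABA 3, with equal numbers of peaks or with regions taken by span and 2 kb, ninaE stood higher in the dopamine lists without overlap. The highest peaks of the types lay at different places. In dopamine neurons the highest summit lay upstream, at -1039 and -1037 bp from the gene start, in an interval that covered a pair of regions (19888961 to 19889034 and 19889154 to 19889285) and had fold enrichments of 2.78 and 4.10, with no peak in any GABA list. The next regions outward, at 1217 and 1666 bp from the gene and named for CG4733, were also higher in both dopamine lists. In GABA neurons the highest summit lay inside the gene, between 1178 and 1344 bp from its start, in the region from 19886734 to 19887221, with fold enrichments of 2.44, 2.64 and 2.53 and no peak in either dopamine list. The region over the start of ninaE itself (19888160 to 19888467) had low peaks, with 3.11 and 0 in the dopamine lists, against 9.78, 8.33 and 46.4 in the GABA lists. Of the 11 ninaE regions, 5 lay in the neighbouring Ask1, which lies 224 bp away, and had no dopamine peak.

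Rh3 encodes an ultraviolet-sensitive opsin of inner photoreceptors (3R, 20081060 to 20082450, minus strand, FBgn0003249). Its percentiles were 48.2 and 67.0 in the dopamine lists but 97.5, 93.9 and 96.9 in the GABA lists, without overlap (57.6 ± 13.3, SD, n = 2, and 96.1 ± 1.92, SD, n = 3, exact permutation test, two-sided, p = 0.2). The signal did not lie at the gene. The peaks fell beyond the 3′ end, in a wide region from 20079652 to 20080656 and its neighbour from 20079361 to 20079589, which share an interval in the GABA lists, with the highest summits between 1922 and 2277 bp from the gene start. The fold enrichments there were 2.55 and 3.87 in dopamine neurons, against 7.92, 6.17 and 5.31 in GABA neurons. The only region inside Rh3 (20081786 to 20081981) had a peak in GABA 3 alone, and no Rh3 region covered its start. Rh3 stands alone in RefSeq, with the next genes, CG4390 and CG31206, 21309 and 24485 bp away. The table assigns these regions by distance, and nothing here ties them to Rh3. Among regions within 1000 bp of a start site the separation was lost, since GABA 3 alone then had a peak.

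Rh4, the other ultraviolet-sensitive opsin gene of inner photoreceptors, spans 3L from 16852527 to 16862517 on the minus strand (FBgn0003250). Its 1 region, over the start (16862016 to 16862560), had no peak in either dopamine list and percentiles of 22.6, 35.8 and 55.3 in the GABA lists (37.9 ± 16.5, SD, n = 3, exact permutation test, two-sided, p = 0.2). These were low peaks, with fold enrichments of 1.99, 2.17 and 2.28, and the separation was lost with a -log10 q of at least 5 or with an overlap of 50%. The gene holds sina, sinah and CG13029 inside its span, and 9 of the 10 regions there were named for them. When regions were taken by span the order turned, to 3.56 percentile points in favour of dopamine neurons, through a sina region at 94.4 and 97.7 in the dopamine lists, compared with 93.8, 91.3 and 91.6 in the GABA lists.

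Rh6, the gene of a green-sensitive opsin of inner photoreceptors (3R, 15483158 to 15484699, plus strand, FBgn0019940), showed the same order as Rh4. None of its 4 regions had a dopamine peak, and its percentiles in the GABA lists were 36.2, 27.2 and 59.4 (40.9 ± 16.6, SD, n = 3, exact permutation test, two-sided, p = 0.2). The region over its start (15483099 to 15483449) had fold enrichments of 2.22, 1.76 and 2.34 in the GABA lists. As at Rh4, the separation was lost with stricter peaks or with an overlap of 50%.

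Rh5, the gene of a blue-sensitive opsin of inner photoreceptors, was the exception (2L, 12008153 to 12009832, plus strand, FBgn0014019). Its highest peak stood at 99.90 and 99.97 in the dopamine lists, against 63.9, 66.0 and 82.9 in the GABA lists (99.94 ± 0.055, SD, n = 2, and 70.9 ± 10.4, SD, n = 3, exact permutation test, two-sided, p = 0.2). It was the 73rd and the 19th highest peak of the dopamine lists. The upstream region (12006797 to 12007918), 1122 bp wide, had an authors' mean signal of 4038, rank 48 of 80590 regions by this count, which is not divided by width. Summits within that region reached fold enrichments of 7.06 and 9.79 in dopamine neurons, against 2.87, 2.92 and 3.06 in GABA neurons, while the highest line of dopamine 2 had its summit outside it, at -4557 bp, in the same long interval. The second region, inside the gene (12008219 to 12009719), held 7 summits in each dopamine list, with fold enrichments of 2.10 to 3.61 and 2.05 to 3.87, and no peak in any GABA list. Ranked by -log10 q instead of fold enrichment, the dopamine lists remained above the GABA lists at Rh5, but by 3.70 percentile points instead of 29.0, and with a required overlap of 50% no GABA peak counted.

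Rh5 lay inside a much wider open domain. The regions on both sides belong to other names and were the 2nd and 4th highest of the whole table by the authors' mean signal: one named for Hacd1 (12002902 to 12006694, mean signal 10231), 1458 bp from Rh5, and one named for lncRNA:CR44588 (12009867 to 12012761, mean signal 9153), 34 bp from it. They were 3793 and 2895 bp wide, against a median of 175 bp over all regions, and this signal is not divided by width. The Hacd1-named region had percentiles of 99.97 and 99.97 in the dopamine lists but 90.0, 90.4 and 94.7 in the GABA lists. At the lncRNA:CR44588-named region they were 99.84 and 99.96 and 87.7, 88.2 and 94.1. In the plot of summits around Rh5, dopamine summits ran across all 3 stretches. Among the summits in these stretches, the lowest of each dopamine library lay within the gene. Outside them, dopamine 1 had lower summits, with a fold enrichment of 1.95 at -5539 and at 5498 bp. Hacd1 itself ends 5886 bp from Rh5, and lncRNA:CR44588 begins 3695 bp from it. With regions taken by span and 2 kb, which adds these flanks, the difference was 8.29 percentile points.

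**Figure D3:**
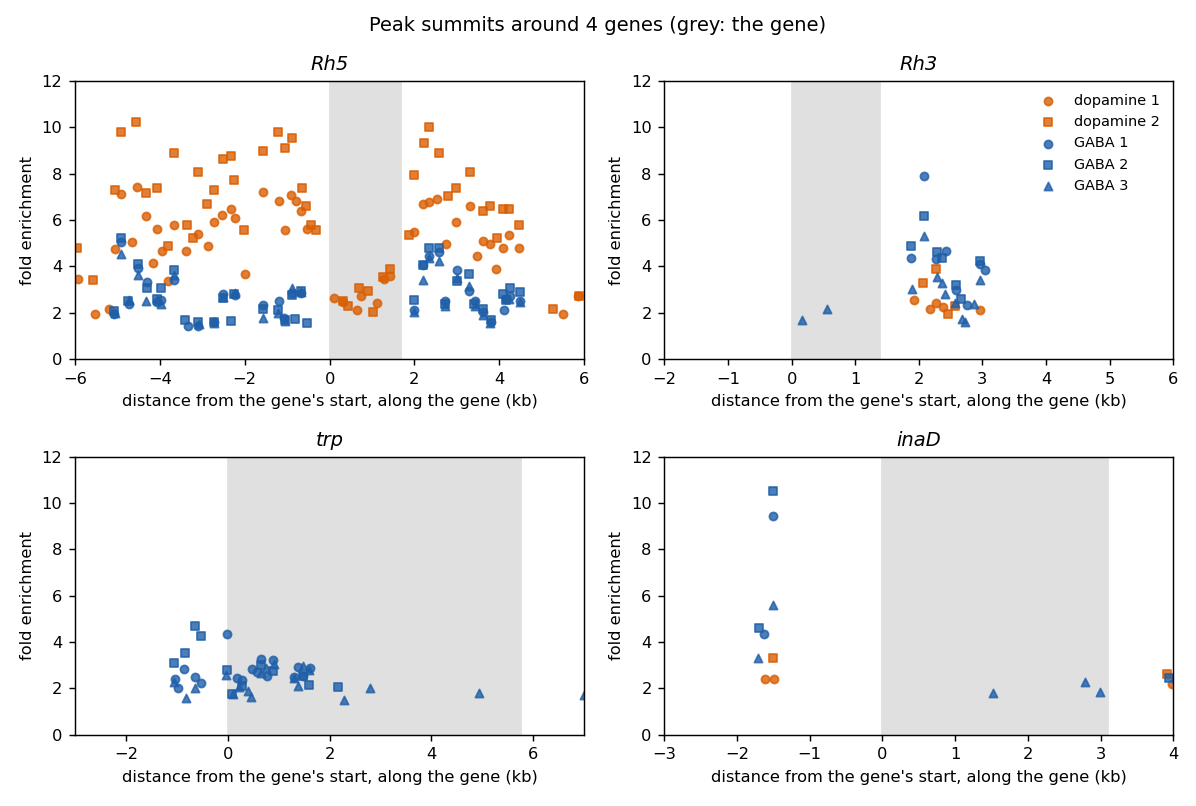
Fold enrichment of every called summit (vertical axis) against distance from the gene's start along the gene (horizontal axis, kb) around Rh5, Rh3, trp and inaD, with the gene in grey. Each point is 1 summit of 1 library, orange for dopamine and blue for GABA. Dopamine summits fill both sides of Rh5 up to a fold enrichment of 10.2, trp holds GABA summits only, and the highest GABA summits of Rh3 and inaD stand outside the genes.

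Among the shared transduction genes, norpA encodes the phospholipase C that the G protein activates. It is the longest of the 10 (X, 4322626 to 4365408, plus strand, FBgn0262738) and has 24 regions. Its highest peak reached 92.0 and 86.2 in the dopamine lists, compared with 81.0, 85.2 and 86.9 in the GABA lists, so the libraries overlapped (89.1 ± 4.09, SD, n = 2, and 84.4 ± 3.02, SD, n = 3, exact permutation test, two-sided, p = 0.4). This single value hid a division along the gene. In the first 5 kb, 3 of 6 regions named for norpA had a peak in all 5 lists, and 2 of these (4324490 to 4324984 and 4325063 to 4325261) stood higher in both dopamine lists. The region over the start of norpA itself (4322158 to 4322666) is named for mRpL33 and is not among the 24. It had a peak in all 5 lists and stood higher in all GABA lists, at 92.6, 94.1 and 95.6, against 89.1 and 90.1 in the dopamine lists. In the rest of norpA, 18 regions had a peak in 1 and 2 cases in the dopamine lists, against 16, 15 and 17 cases in the GABA lists, and 14 of the 18 stood higher in all GABA lists.

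The region over the downstream start site of norpA (4347583 to 4347922) was among these, with fold enrichments of 3.66, 3.06 and 2.24 in the GABA lists and no dopamine peak. A downstream exon region (4353982 to 4354595) was the only norpA-named one beyond the first 5 kb with a peak in every list. It stood at 26.9 and 37.4 in the dopamine lists, against 78.3, 66.9 and 84.0 in the GABA lists. A region inside the span but named for CG12693 (4334455 to 4334873) also had a peak in every list, at 40.7 and 64.9 and at 91.9, 91.9 and 94.9. Of the 40 regions within the span, 16 carry the names CG12693, mir-982 or mRpL33. With regions taken by span and 2 kb, the direction turned, with norpA higher in GABA neurons and a difference, dopamine minus GABA, of -6.15 percentile points. Ranked by -log10 q, among regions within 1000 bp of a start site, with equal numbers of peaks, or without dopamine 2 or GABA 3, norpA stood higher in the dopamine lists instead.

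**Figure D4:**
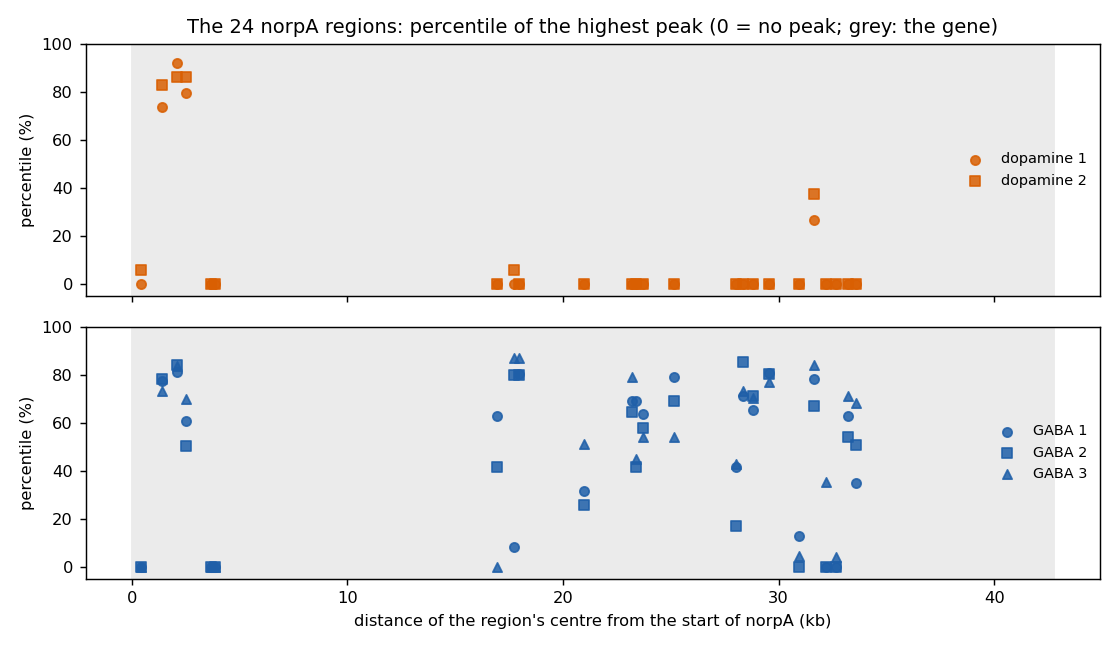
Percentile of the highest peak (vertical axis, 0 where no peak was called) at each of the 24 norpA regions against the distance of the region's centre from the gene start (horizontal axis, kb), with dopamine libraries above and GABA libraries below. In the first 5 kb both types have peaks at 3 regions, and beyond it 14 of 18 regions stand higher in all GABA lists.

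ninaC encodes a myosin fused to a kinase domain that acts in the rhabdomere (2L, 7377702 to 7384344, plus strand, FBgn0002938). Its percentiles were 66.6 and 52.2 in the dopamine lists but 89.9, 70.3 and 83.5 in the GABA lists (59.4 ± 10.2, SD, n = 2, and 81.3 ± 9.9996, SD, n = 3, exact permutation test, two-sided, p = 0.2). All 5 values came from a single place, the region from 7382215 to 7382834, annotated as 3′ UTR, with summits between 4782 and 4795 bp from the gene start. Fold enrichments there were 3.08 and 3.19 in dopamine neurons, against 5.02, 3.11 and 3.09 in GABA neurons, so that on this scale only GABA 1 stood apart. The separation in percentile was lost with equal numbers of peaks, when peaks were ranked by -log10 q, and within 1000 bp of a start site. Its start site region (7377636 to 7377766) had a peak in dopamine 1, GABA 1 and GABA 3. A region further upstream, inside Wnt10 (7376662 to 7376758), had a peak in dopamine 1 and 2 but in none of the GABA lists. Its neighbour, also inside Wnt10 (7377087 to 7377173), had the opposite, a peak in every GABA list, at 17.8, 41.3 and 61.4, and in no dopamine list.

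trp, the gene of the founding TRP channel and the main light-activated channel of the fly eye, separated the types most widely (3R, 29914521 to 29920289, minus strand, FBgn0003861). None of its 7 regions had a peak in a dopamine list, compared with 6, 6 and 7 regions in the GABA lists. The GABA percentiles were 85.9, 87.7 and 82.8 (85.5 ± 2.45, SD, n = 3, exact permutation test, two-sided, p = 0.2). The regions ran from about the start of the gene in both directions: the one over the start (29919993 to 29920394) had fold enrichments of 4.35, 2.80 and 2.6, and a pair upstream, out to -1081 bp, reached 2.86, 4.71 and 2.29. Within the gene as a whole 11, 7 and 14 summits were called in the GABA lists and none in the dopamine lists. No dopamine peak appeared in any alternative setting, and the difference lay between -86.8 and -77.7 percentile points.

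trpl, whose product forms the second light-activated channel together with or beside TRP, has 3 regions (2R, 9753697 to 9765518, plus strand, FBgn0005614). The region just upstream of the start (9753260 to 9753496) had a peak in all 5 lists, at 48.2 and 45.5 in the dopamine lists, compared with 86.3, 79.3 and 83.3 in the GABA lists (46.9 ± 1.95, SD, n = 2, and 83.0 ± 3.50, SD, n = 3, exact permutation test, two-sided, p = 0.2). Fold enrichments were 2.55 and 2.96 in dopamine neurons, against 4.41, 3.69 and 3.07 in GABA neurons, with every summit between -291 and -216 bp. The other trpl regions had no peak in any list. Inside the span, 13 of 15 regions carry the names of CG1690 or asRNA:CR44205, and over all 15 there was no dopamine peak but 11, 7 and 11 regions with a peak in the GABA lists.

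inaD encodes the PDZ scaffold that holds phospholipase C, protein kinase C and the TRP channel in a complex (2R, 22855688 to 22858794, minus strand, FBgn0001263). It had the highest GABA peak of the 10 genes, at percentiles of 98.7, 99.3 and 97.4, compared with 40.7 and 55.1 in the dopamine lists (98.5 ± 0.964, SD, n = 3, and 47.9 ± 10.2, SD, n = 2, exact permutation test, two-sided, p = 0.2). Its fold enrichments were 9.43, 10.5 and 5.59 in GABA neurons and 2.404 and 3.30 in dopamine neurons. The summits of all 5 libraries fell between -1506 and -1496 bp from the gene start, in a region upstream of inaD (22860232 to 22860591) that overlaps no RefSeq gene, the next one outward being fd59A. The 3 regions inside the gene had no dopamine peak, and a single one had a peak in GABA 3 alone. Since the upstream region lies further than 1000 bp away, no peak was left in any library when regions were limited to that distance. With regions taken by span and 2 kb, which adds peaks named for RpL23 and CG13531, the difference shrank from -50.6 to -6.37 percentile points.

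By position, the 5 member regions over a gene start (ninaE, Rh4, Rh6, ninaC and trp) had a peak in 2 and 0 cases in the dopamine lists, against 5, 4 and 5 cases in the GABA lists. Over all regions at any position the shares were 40.5% and 40.4%, against 49.5%, 49.2% and 60.2%. The region over the norpA start, named for mRpL33 and so not counted, had a peak in all 5 lists. Inside the genes, 18 of 44 regions stood higher in the GABA lists and 3 in the dopamine lists, beside 26.6% and 16.4% of all regions at any position. norpA alone gave 24 of these 44 regions and 14 of the 18. Upstream, 6 of 10 regions stood higher in the GABA lists and 4 in the dopamine lists, of which 3 belonged to rhodopsins (ninaE and Rh5) and 1 to ninaC. Beyond the gene end, where only rhodopsins had regions, 4 of 9 stood higher in the GABA lists and none in the dopamine lists. These 4 were all Rh3 regions, and the others were ninaE regions inside Ask1.

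Markers of photoreceptors and of other head cells also differed in rank between the lists. Of 4 further photoreceptor genes, chp (chaoptin, an adhesion protein of the rhabdomere), gl and Pph13 (transcription factors of photoreceptors) stood higher in all GABA lists, and Hdc, the histamine synthesis gene, had a peak only in GABA 1 and GABA 2. The values of chp were 0 and 16.5 in the dopamine lists, against 49.8, 33.7 and 49.3 in the GABA lists, those of gl 0 and 62.6 and 69.3, 82.3 and 70.1, and those of Pph13 40.7 and 45.5 and 90.6, 82.5 and 91.7. Of 3 glial genes, repo and alrm stood higher in the GABA lists and nrv2 overlapped. The margin at repo was small, with 66.6 and 70.8 in the dopamine lists, against 71.4, 72.4 and 74.9 in the GABA lists. At alrm it was wide, with 36.3 and 45.5 in the dopamine lists, against 91.4, 91.7 and 97.0 in the GABA lists. Of the 34 regions of the glial genes, 38.2% and 47.1% had a dopamine peak, compared with 55.9% to 70.6% in the GABA lists, beside the 40.5% and 40.4% and the 49.2% to 60.2% of all regions. Among 3 markers of neurons in general, nSyb also stood higher in the GABA lists (97.4 to 97.9, against 75.3 and 87.3), elav stood higher in the dopamine lists and brp overlapped. Over all genes, 39.3% stood higher in the GABA lists and 23.9% in the dopamine lists. The epidermal regulator grh had a peak at 92.3% and 88.5% of its 26 regions in the dopamine lists but at 26.9% to 46.2% in the GABA lists. By the percentile of its highest peak the margin was small, with 99.4 and 99.5 against 96.1, 95.2 and 93.4. Pu and ry stood higher in the dopamine lists, while ct, a cone cell regulator, stood higher in the GABA lists. Pu and ry were listed for eye pigment synthesis, which does not tie either gene to pigment cells alone. The margin at Pu was small, with 96.7 and 97.0 in the dopamine lists, against 93.7, 93.7 and 95.8 in the GABA lists. At ry the values were 92.0 and 94.9 and 67.1, 52.9 and 48.4. The part of such cells in the results was not tested.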

How the data were processed

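Per the labels and the study's methods, the authors aligned reads to dmel_r6.26, of build BDGP6 (Bowtie2), discarded duplicates (Picard), ran MACS2 on each library, and used featureCounts and DESeq2 for region counts and the comparison. The MACS2 settings, and how the 80590 regions were made, are not given in the sources used here. The deposited peak lists give a fold enrichment and a -log10 q per summit. The deposited table gives a mean signal (normalized read count over all 5 libraries), a distance to the nearest start site, and 5 columns of the authors' comparison (log2 fold change, its error, statistic and p-values), which were not used. These files hold no read counts per library, so no counting interval was computed; the reads per library that the study lists were not used here.

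Peaks overlapping a region by at least 1 bp were assigned to it, and percentiles were taken within each list by fold enrichment. Groups follow the sample titles. Exact two-sided permutation tests over libraries were used. Python 3.11.15, numpy 2.4.6, pandas 2.3.3, scipy 1.17.1 and matplotlib 3.10.9 were used. The overlap function was tested on simulated intervals, and the percentile and permutation functions on small fixed examples. Gene spans came from RefSeq, Release 6. The 10 members and all gene lists were chosen with earlier results of these data known. All members are named with every library's value. Of the other lists, counts cover all genes and values the genes without overlap between types, at most 6 a list by the largest gap, with Rh2 and Rh7. Region limits count from 1. Alternatives were another overlap, stricter or equally many peaks, another ranking, other rules for regions, and leaving out each library; leaving out Rh5 or norpA and requiring a summit inside the region were added after seeing the data. No sequence is shown, since the reference tables used here hold none.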

Additional observations from a re-analysis of the deposited data

How the results depend on the processing

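Over 15 alternative settings, the differences between neuron types in the share of regions with a peak, and in each gene's highest percentile, kept their direction in 166 values and lost it in 4. It turned at Rh4 (3.56 percentile points, dopamine minus GABA) and at norpA (-6.15) with regions taken by the gene's span and 2 kb, and at ninaE without dopamine 2 (-0.48), and inaD had no peak left within 1000 bp of a start site (a difference of 0). The 7 member regions higher in the dopamine lists became 13 with regions taken by span and 2 kb. The 32 higher in the GABA lists became 53 under that rule and 12 within 1000 bp of a start site. Leaving out each library in turn gave 7 to 9 regions higher in the dopamine lists and 32 to 37 higher in the GABA lists. No p can pass 0.05 in this design under any setting, so p-values say nothing about stability.

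With a replicate block, over the 2 pairs of libraries that share a number, the paired differences were -30.4 points for the rhodopsins, -44.4 for the transduction genes and 14.0 for their difference. GABA 3 has no partner, so these are the same values as those found without GABA 3. The block is therefore no separate check, although its values are counted among the 166. The libraries share only a number: deviations of same-numbered libraries correlated at -0.047 and 0.078 over all regions. Read depth was not modelled and the MACS2 settings are not given in the sources used here, which limits every comparison of lists. A region without a peak may be open below the level of calling, and a nearest-gene name does not tie a region to that gene.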

Other observations

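The remaining opsins were Rh2, the opsin of the ocelli, and Rh7, an opsin also known from brain neurons. Rh2 had 2 regions and a peak only in GABA 3, at percentile 35.0. Rh7 reached 62.3 and 52.2 in the dopamine lists, compared with 95.7, 96.3 and 97.1 in the GABA lists, without overlap. Of 26 other phototransduction genes, 25 had regions, of which 18 stood higher in all GABA lists and 3 in both dopamine lists. The widest gap was at Arr1, an arrestin that ends rhodopsin signalling, with 26.9 and 22.3 in the dopamine lists, against 84.5, 78.0 and 90.3 in the GABA lists. In the same order, dopamine before GABA lists, Trpgamma, a further TRP channel gene, stood at 64.5 and 60.2 and at 92.8, 94.8 and 95.4. inaC, the eye protein kinase C, stood at 57.3 and 37.4 and at 80.3, 81.3 and 82.6. The gene stops stood at 54.7 and 60.2 and at 93.9, 85.7 and 91.9, and ninaB, of chromophore synthesis, at 78.2 and 72.6 and at 95.9, 93.4 and 95.3. ninaA, the chaperone of the ninaE opsin, had the opposite order, with 76.8 and 72.6 in the dopamine lists but 36.2, 20.01 and 42.9 in the GABA lists.

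Of 16 photoreceptor regulators, 14 had regions, of which 12 stood higher in the GABA lists and 2 in the dopamine lists. After Pph13 the widest gap was at pros, with 73.8 and 74.2 in the dopamine lists, compared with 95.5, 95.7 and 96.6 in the GABA lists. At salr, a zinc finger gene of inner photoreceptors, the values were 84.3 and 75.8 and 95.8, 96.4 and 98.0. At sens and ss every library was above 82, the GABA lists between 98.0 and 99.2. Of 10 genes of photoreceptor structure and transmitter handling, 5 stood higher in the GABA lists and 2 in the dopamine lists. prom (prominin) stood at 10.7 and 27.6 in the dopamine lists, against 83.6, 74.2 and 81.3 in the GABA lists, and eys, which keeps rhabdomeres apart, at 31.7 and 57.8 and at 93.6, 95.6 and 95.2. The histamine receptor gene ort, which acts in the targets of photoreceptors, had no dopamine peak and stood at 41.3, 58.8 and 49.2 in the GABA lists. CarT, a carcinine transporter gene, had no dopamine peak and stood at 31.9, 6.78 and 43.2. ebony (e), which acts in glia and in cuticle, stood at 98.3 and 98.2 in the dopamine lists but at 70.6, 78.0 and 88.8 in the GABA lists. These lists are read against the 39.3% and 23.9% of all genes that stood higher in the GABA and in the dopamine lists.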
